A study of Mus musculus with 12 samples.

Results

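In all, 10 transcription factors of myeloid and stimulated immune cells were chosen by name, and 8 of them had a row in the raw count table of 545 immune genes: Runx1, Runx3, Ikzf1, Cebpb, Maf, Ahr, Pparg and Gfi1. Egr1 and Egr2, the activity-linked pair, were not analysed here. RNA came from microglia of the hippocampus, the resident macrophages of the brain, sorted from male control mice of the BALB/c strain, aged 28 days (P28, n = 6) or 14 days (P14, n = 6) after birth. The animals of both ages came from different litters, none had been stressed, and neither group carried a transgene or a drug treatment that the labels name. The study asks how early life stress alters the maturation of microglia; the 2 ages of unstressed animals ask which immune genes differ between the ages in these cells. The nCounter mouse immune panel counts fluorescent barcodes bound to each target without sequencing.

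Transcription factors bind short DNA motifs and set which genes a cell transcribes. RUNX proteins pair with the subunit CBF-beta and are known for the formation of blood cells, and Ikaros, encoded by Ikzf1, is a zinc finger protein of blood lineages. C/EBP-beta and c-Maf are leucine zipper proteins of macrophages. The aryl hydrocarbon receptor, encoded by Ahr, and PPAR-gamma are switched on by small ligands, and Gfi1 is a zinc finger repressor of blood cells. Their abundance in the nucleus is not measured by RNA.

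The start regions of the RUNX genes are shown because the family member that changed with age, Runx1, and the one near background, Runx3, carry the same short arrangement. RefSeq windows of GRCm38.p6, each from 250 bases before to 50 bases after a transcript start, were found for 6 of the 8 genes, 12 windows in all. They were searched on both strands for the core RUNX motif TGTGGT, which reads ACCACA on the other strand. Of these 12 windows, 2 held it, the upstream window of Runx1 (chr16:92826025-92826324, minus strand) and that of Runx3 (chr4:135120395-135120694, plus strand). Capitals mark the matches.
Runx1: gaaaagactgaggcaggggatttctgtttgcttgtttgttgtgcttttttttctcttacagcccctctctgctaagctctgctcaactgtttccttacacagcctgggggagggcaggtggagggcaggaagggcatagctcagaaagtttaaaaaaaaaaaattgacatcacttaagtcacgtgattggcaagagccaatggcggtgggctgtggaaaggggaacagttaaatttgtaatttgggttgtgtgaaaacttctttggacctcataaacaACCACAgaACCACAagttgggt
Runx3: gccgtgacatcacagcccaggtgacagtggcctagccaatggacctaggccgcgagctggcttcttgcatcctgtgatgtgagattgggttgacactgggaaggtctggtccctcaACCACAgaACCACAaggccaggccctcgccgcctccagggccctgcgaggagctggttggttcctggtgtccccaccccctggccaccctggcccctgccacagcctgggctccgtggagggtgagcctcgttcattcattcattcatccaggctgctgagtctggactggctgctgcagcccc
In each, 2 copies of ACCACA lie on the same strand with 2 bases between them. The first copy begins at base 29 after the start in Runx1, and 134 bases before the start in Runx3. The downstream windows of both genes held no copy. At least 1 copy was found in 16.8% of all 32851 windows, and 2 copies on 1 strand with that spacing in 7 windows (0.0213%), of Runx1, Runx2, Runx3, Olfr24, Gm12236, Gm15462 and Gm16225. That spacing was read from the Runx1 and Runx3 windows and then counted. A match describes letters and not binding.

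The summed raw counts of the 545 genes lay between 1025200 and 1534660 at P28 and between 356398 and 1316430 at P14. Levels are given as scaled counts: raw counts divided by the geometric mean of 6 reference genes, with the factors centred on 1. A count was above background when it lay more than 2 SD over the mean of that lane's 8 negative probes, a threshold of 24.8 to 33.4 raw counts at P28 and 12.9 to 32.0 at P14. A gene was tested when this held in at least 40% of the 12 samples, which left 366 genes and 7 of the 8 factors. Each difference is a log2 fold change of P28 over P14 with its SE, tested by quasi-likelihood in edgeR and adjusted by Benjamini-Hochberg across the 366 genes. The geometric mean of the positive controls was 1069 to 1235 counts in P28 lanes and 542 to 651 in P14 lanes; the sources used here do not say whether the ages were run together, so run and age cannot be told apart. On the second principal component, P14 samples 4 and 5 had 5.30 and 9.16, and the remaining P14 animals -6.83 to -3.26. P14 samples 4 and 5 also had the lowest summed raw counts of all 12 samples, 772723 and 356398. The result of each factor is therefore also given without that pair. All 9 microglial marker genes that the table held, among them Cx3cr1, Csf1r, Trem2, Itgam and Ptprc, were above background in all 12 samples. In sorted cells, fewer cells of a type and less RNA per cell cannot be told apart.

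At P28, microglia had more Runx1 RNA than at P14, and Gfi1 RNA was lower at P28 but lay at background there. Ikzf1 and Cebpb had nearly the same means at both ages. Maf and Ahr averaged lower at P28, and whether they passed the test depended on single animals and on the scaling, for Ahr also on the tool. Of the 7 factors tested, 1 was higher, 1 was lower and 5 did not pass an FDR of 0.05; among all 366 genes, 16.7% were called higher and 13.9% lower, 30.6% in all. The counts of factors higher and lower were 1 and 2 without P14 samples 4 and 5, 1 and 2 with DESeq2, 1 and 0 with the authors' factors, 1 and 3 with total counts and 0 and 4 with positive controls alone. The median log2 fold change was -0.29 over these 7 factors and 0.0026 over all 366 genes. That of the factors is the value of Pparg, a gene near background, and it moved with the setting. The medians of factors and of all genes were -0.14 and 0.0083 with presence in 6 of 12 samples, which leaves out Gfi1. They were -0.023 and 0.18 with limma on the authors' values, which also lack Gfi1, and -0.43 and -0.14 with total counts. Gfi1 met the presence rule through P14 samples only, so its fall is partly built into that filter.

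**Figure D1:**
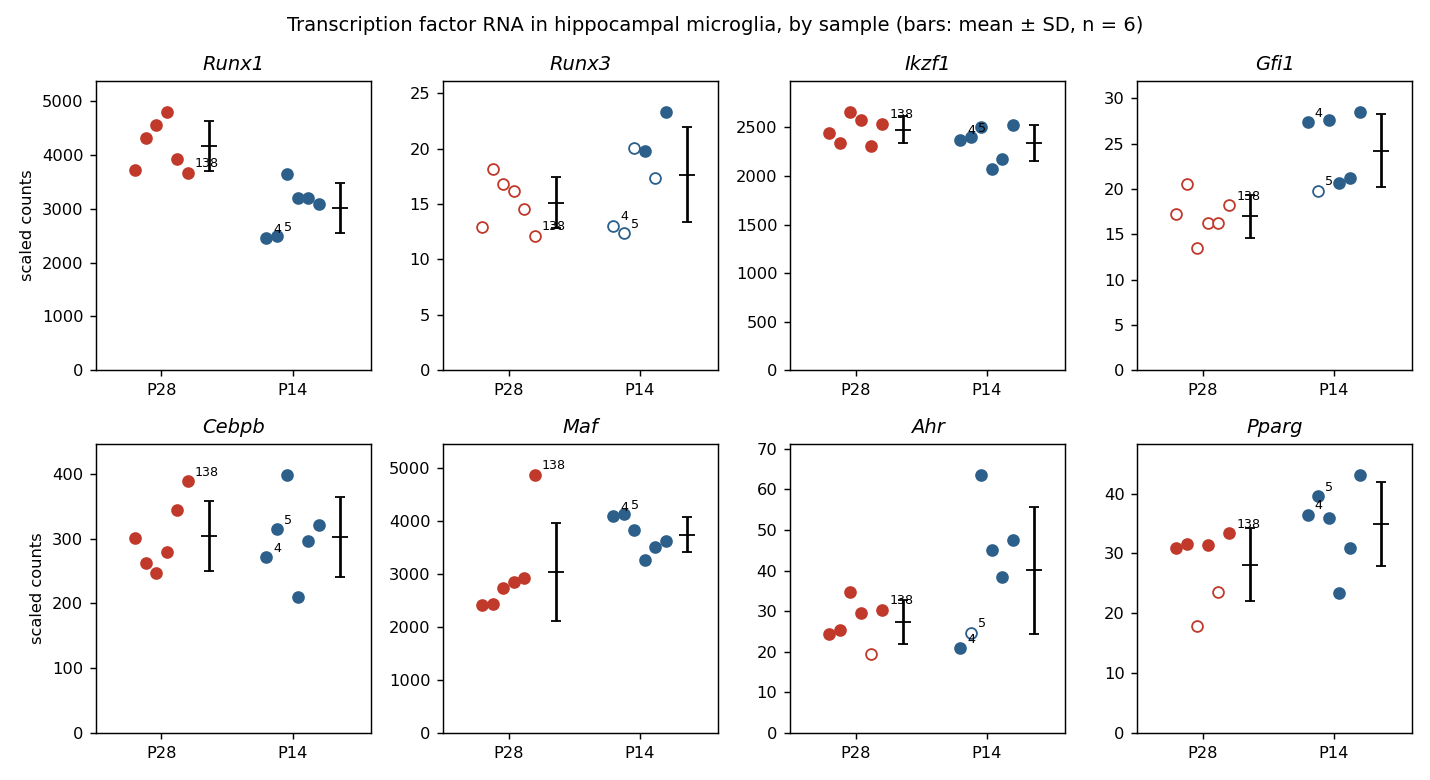
Scaled counts (raw counts over 6 reference genes) of the 8 factors in each animal, P28 in red and P14 in blue, with the mean ± SD of 6 animals beside each age. Filled points are above the lane's background and open points are not; P14 samples 4 and 5 and P28 sample 138 are numbered. Runx1 does not overlap between the ages, and P28 sample 138 lies above all other samples in Maf.

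Runx1 encodes the RUNX family member known for the emergence of blood stem cells and for myeloid differentiation. Its scaled counts ran from 3673 over a median of 4125 to 4803 at P28, and from 2450 over a median of 3148 to 3655 at P14. The lowest P28 animal lay just above the highest P14 animal, so the ages did not overlap; such a separation was seen in 20.8% of the 366 genes. Runx1 averaged 4168 ± 462 at P28 and 3017 ± 463 at P14 (SD, n = 6 each), and rose by a log2 fold change of 0.47 ± 0.12 (adjusted p = 0.00814, edgeR). P14 samples 4 and 5 were the lowest of all, at 2450 and 2498, against 3100 to 3655 in the other 4 P14 animals. Without them the rise was 0.34 (adjusted p = 0.0142). With positive controls alone the value was -0.31 and was not called. That scaling moved the median of all genes to -0.74, and Runx1 relative to it was 0.43. In the authors' deposited table the ratio of Runx1 was 1.51 with a p-value of 2e-04.

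Runx3 encodes the family member known from cytotoxic T cells, NK cells and dendritic cells. Raw counts were 12 to 23 at P28 and 5 to 27 at P14. The probe was above background in 0 of 6 samples at P28 and in 2 of 6 at P14, P14 samples 25 and 81, and was therefore not tested. Lane thresholds weigh on these counts. In P28 sample 119, 23 raw counts lay below the threshold of 30.8, while 22 in P14 sample 25 lay above 15.5. Its scaled counts averaged 15.1 ± 2.33 at P28 and 17.7 ± 4.28 at P14, and no fold is given because both means lie at background. Marker genes of T cells and NK cells, which use Runx3, were mixed. Of 11 T cell genes held by the table, 3 were present: the kinase gene Lck was above background in all 12 samples and lower at P28 (-1.01 ± 0.15, adjusted p = 0.000128), Cd5 was higher (1.07 ± 0.20, adjusted p = 0.000821), and Cd6 did not pass. Cd5 was above background in 6 of 6 samples at P28 and in 3 of 6 at P14. Its fitted value thus rests on a P14 mean near background, 20.7 ± 5.17 scaled counts. The T cell genes Cd3e, Cd2 and Cd28 were above background in no sample. Of 6 NK cell genes, the receptor gene Klrd1 had 107 ± 8.81 scaled counts at P28 and 15.9 ± 6.26 at P14, while Klrk1 and Gzma were above background in 0 of 6 samples at P28 and in 5 of 6 at P14. Prf1 was above background in 6 of 6 samples at P28 and in 5 of 6 at P14, Eomes in 1 of 6 at each age and Gzmb in none. Summed scaled counts ranged from 201 to 254 at P28 and from 245 to 289 at P14 for the T cell genes, and from 215 to 327 at P28 and from 91.5 to 219 at P14 for the 6 NK cell genes. The T cell sum includes the genes that were not present, whose counts lay at background. Within it, Lck had 49.5 ± 8.05 scaled counts at P28 and 98.9 ± 15.4 at P14. At P28 the NK cell sum was mostly of Klrd1 and Prf1. The part of all these genes in the Runx3 counts was not tested.

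Ikzf1 was the steadiest of the factors. Scaled counts ran from 2313 over a median of 2488 to 2658 at P28, and from 2068 over a median of 2384 to 2521 at P14. The ages overlapped, with coefficients of variation of 5.52% at P28 and 7.81% at P14. The difference did not pass the test (0.083 ± 0.087, adjusted p = 0.533), and its 95% interval ran from -0.10 to 0.27 on the log2 scale. With P14 samples 4 and 5 left out it was 0.096. In the authors' deposited table, whose factors scale P28 samples higher, the ratio of Ikzf1 was 1.15 with a p-value of 0.0123. The edgeR fit with those factors gave 0.21 (adjusted p = 0.104). Without P14 samples 4 and 5 it became a call with the authors' factors (0.25, adjusted p = 0.0445) and with all 14 reference genes (0.24, adjusted p = 0.0324), alternatives added after the data were seen.

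Cebpb encodes C/EBP-beta, which drives inflammatory cytokine genes in macrophages. At P28 its scaled counts ran from 246 over a median of 290 to 389, and at P14 from 210 over a median of 305 to 398. The means were 304 ± 53.7 at P28 and 302 ± 61.9 at P14 (SD, n = 6 each). No difference was detected (0.0086 ± 0.16, adjusted p = 0.976), with a 95% interval from -0.34 to 0.35. The value was -0.014 without P14 samples 4 and 5. The animals within an age spread more widely than the ages differed, and the sign turned with the scaling.

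Maf encodes c-Maf, which in macrophages and T cells is known as an activator of Il10. Scaled counts at P28 ran from 2413 over a median of 2797 to 4879, and at P14 from 3276 over a median of 3730 to 4133. P28 sample 138, at 4879, lay above all other animals, and the other 5 P28 animals lay between 2413 and 2920, below all P14 animals. With all 12 animals the difference did not pass (-0.30 ± 0.16, adjusted p = 0.164). Leaving out P14 samples 4 and 5 gave -0.23 (adjusted p = 0.31). Without P28 sample 138 Maf was called lower at P28 (-0.49, adjusted p = 0.00218). Src, a tyrosine kinase, and Jak2, a cytokine receptor kinase, were also highest in that animal. They were picked as the 2 genes most like Maf over these same 12 samples, so this is partly built into the choice. Src had 951 scaled counts there and 533 to 624 in the other P28 animals. Jak2 had 9567 there and 3398 to 4045 in the others. P14 animals had 436 to 549 scaled counts of Src and 4401 to 6751 of Jak2. What sets this animal apart was not tested.

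Ahr encodes a receptor for dioxins, plant compounds and tryptophan products. Its scaled counts ran from 19.4 over a median of 27.4 to 34.7 at P28, and from 20.9 over a median of 41.8 to 63.6 at P14. At each age 5 of 6 samples were above background. The P14 sample below it was sample 5, with 10 raw counts against a threshold of 12.9. P14 sample 4 lay just above, with 16 against 13.5. The P28 level was also near background. Its 5 samples above background had 30 to 34 raw counts against thresholds of 24.8 to 32.2, and P28 sample 137 had 24 against 33.4. The P14 animals split: samples 4 and 5 had 20.9 and 24.7, within the P28 range, and the other 4 had 38.5 to 63.6, above all P28 animals. The difference of all 12 animals did not pass (-0.61 ± 0.24, adjusted p = 0.0679, edgeR), while DESeq2 called it (-0.62, adjusted p = 0.0292). Without P14 samples 4 and 5 it was -0.85 (adjusted p = 0.00273), and leaving out only sample 4 or only sample 5 also gave a call (adjusted p = 0.0162 and 0.0326). Without P14 sample 16, the highest, it was -0.43 (adjusted p = 0.166).

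Pparg encodes a nuclear receptor for fatty acids that is known for lipid handling and alternative activation of macrophages. At P28 scaled counts ran from 17.9 over a median of 31.2 to 33.4, and at P14 from 23.4 over a median of 36.2 to 43.1. The probe was above background in 4 of 6 samples at P28 and in 6 of 6 at P14, and the ages overlapped. The difference did not pass (-0.29 ± 0.18, adjusted p = 0.24), and its 95% interval ran from -0.68 to 0.095. Leaving out P14 samples 4 and 5 gave -0.24 (adjusted p = 0.366).

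Gfi1 encodes a repressor known from neutrophil precursors, blood stem cells and lymphocytes. Raw counts were 12 to 26 at P28 and 8 to 33 at P14. The probe was above background in 0 of 6 samples at P28 and in 5 of 6 at P14, all but sample 5. These counts depend on the thresholds of the lanes. In P28 sample 119, 26 raw counts lay below the threshold of 30.8, while 21 in P14 sample 4 lay above 13.5. On the scaled level it averaged 17.0 ± 2.36 at P28 and 24.2 ± 4.02 at P14 (SD, n = 6 each), and the test called it lower at P28 (-0.52 ± 0.15, adjusted p = 0.0157). The P14 mean over the background bound for the P28 lanes came to 0.947, under 1, so no fold is given and the fitted value is no bound. The fitted value was -0.52 (adjusted p = 0.022) without P14 samples 4 and 5. With the authors' factors the value was -0.39 (adjusted p = 0.0728), with the negative probes subtracted it was -1.30 (adjusted p = 0.0824), and without P14 sample 81 it was -0.46 (adjusted p = 0.0518). Among 6 neutrophil genes held by the table, S100a9 was above background in no sample. Cxcr2, a neutrophil chemokine receptor, had 14.1 ± 2.89 scaled counts at P28 and 46.7 ± 7.93 at P14, above background in 0 of 6 and in 6 of 6 samples. Summed scaled counts of the 6 neutrophil genes, mostly of Csf3r, were 4190 to 8272 at P28 and 2875 to 8706 at P14; their part in the Gfi1 result was not tested.

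**Figure D2:**
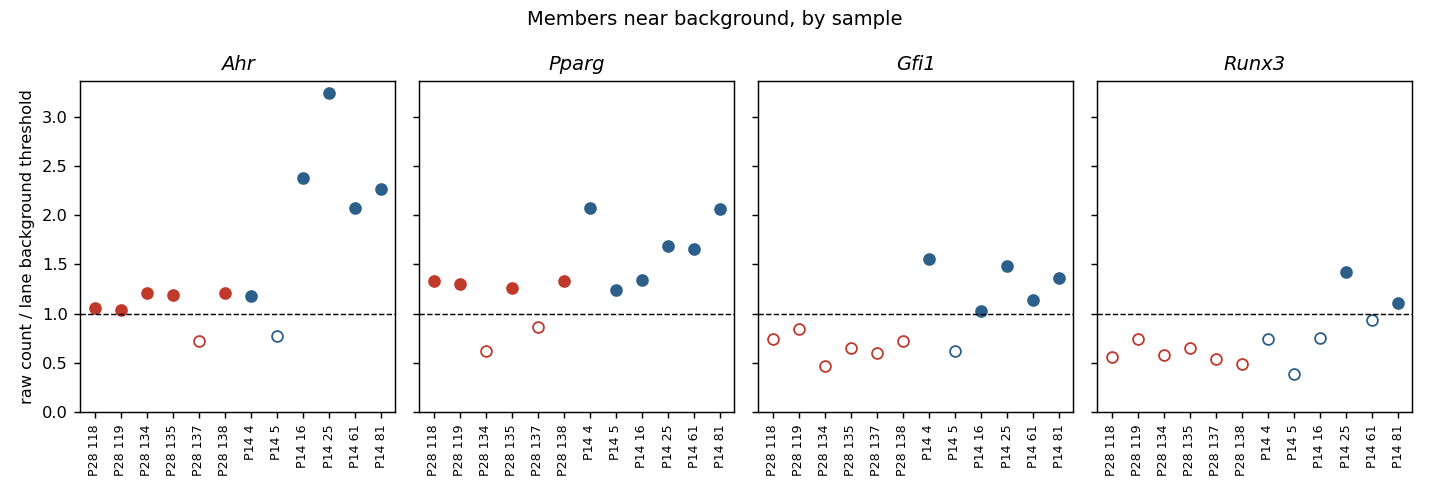
Raw counts of Ahr, Pparg, Gfi1 and Runx3 divided by the background threshold of the lane (mean plus 2 SD of 8 negative probes), 1 point per animal, P28 in red and P14 in blue. The dashed line marks the threshold: at P28, Gfi1 and Runx3 are below it in 6 of 6 animals, and Ahr is below it in 1.

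**Figure D3:**
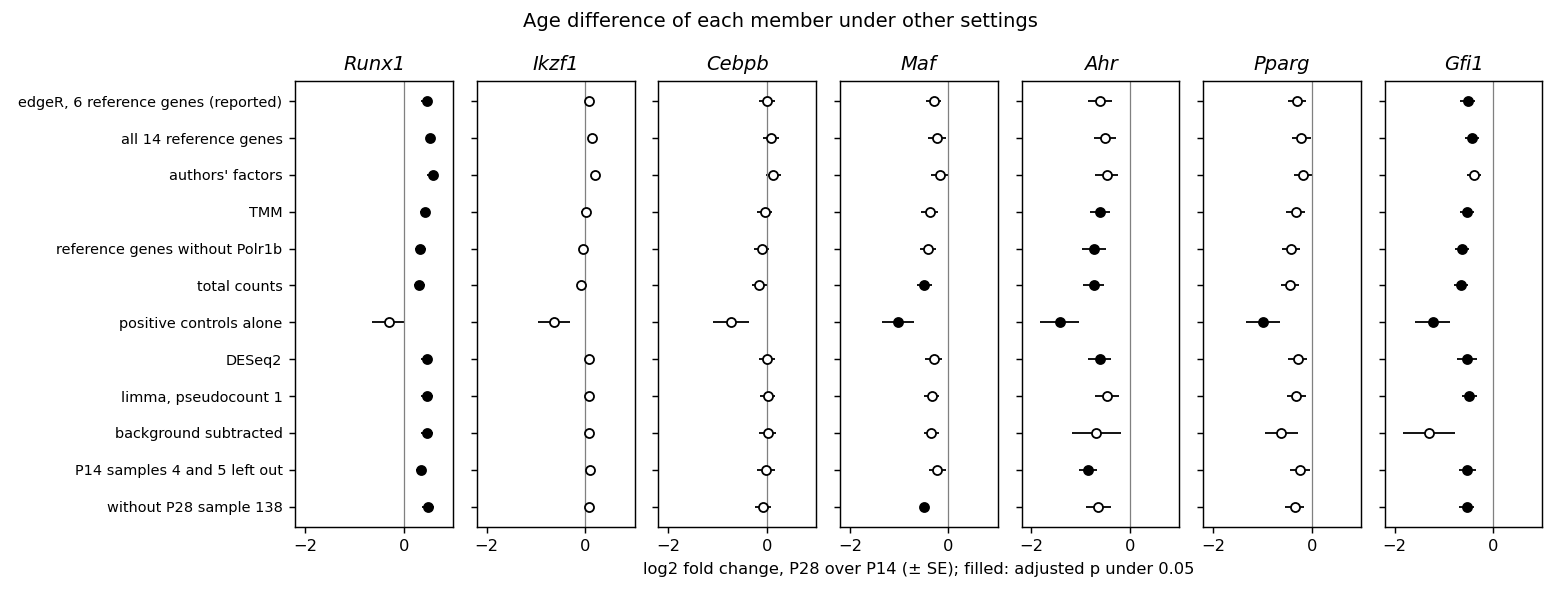
Log2 fold change P28 over P14 (± SE) of the 7 tested factors under the reported fit and 11 other settings; filled points have an adjusted p under 0.05. Runx1 is filled and positive in all settings shown except positive controls alone, where every factor is below 0; Maf is filled without P28 sample 138, with total counts and with positive controls alone, and Ahr in those 2 scalings, with TMM, without Polr1b, with DESeq2 and without P14 samples 4 and 5.

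Pairs of factors were compared across the 6 animals of each age, 42 relations in all. None passed after adjustment by Pearson's or Spearman's coefficient in exact two-sided permutation tests (smallest adjusted p = 0.194 and 0.467), and 5 had an unadjusted Pearson p under 0.05. Runx1 and Ahr varied together at P14 (r = 0.97, exact permutation p = 0.00972, adjusted p = 0.194; rho = 0.83, exact permutation p = 0.0583, adjusted p = 0.49). Leaving out the 2 animals farthest from the median of Runx1 gave r = 0.83. P14 samples 4 and 5 were lowest in both genes. At P28 the pair of Ikzf1 and Ahr had r = 0.92 (exact permutation p = 0.0139, adjusted p = 0.194; rho = 0.89, exact permutation p = 0.0333, adjusted p = 0.467), and r = 0.83 without the 2 animals farthest from the median of Ikzf1.

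Genes that act with these factors were described from lists chosen by their known roles, whose counts stand beside 16.7% higher and 13.9% lower over all 366 genes. Of 7 tested RUNX and TGF-beta genes, Runx1 itself rose and 6 did not pass. Tgfbr2, a receptor chain for TGF-beta (0.48 ± 0.17, adjusted p = 0.0512), Tgfb1, the ligand (0.41 ± 0.18, adjusted p = 0.0936), and Ski, a repressor of the pathway (0.56 ± 0.27, adjusted p = 0.123), did not pass, nor did Tgfbr1 (0.20), Smad3 (0.086) and Smad5 (-0.18). The list's median, Runx1 included, was 0.41; it was 0.30 without P14 samples 4 and 5 (1 higher, 1 lower) and 0.069 when P28 sample 138 was left out as well. Of 5 tested genes known as RUNX targets, 1 was called higher and 1 lower. Itgax, the integrin chain CD11c, had 174 ± 24.8 scaled counts at P28 and 45.2 ± 17.9 at P14 (1.91 ± 0.22, adjusted p = 1.33e-05). Itgal, the integrin chain CD11a, had 18.01 ± 4.09 scaled counts at P28, above background in 0 of 6 samples, and 39.9 ± 8.34 at P14, above background in 6 of 6. Like Gfi1 it met the presence rule through P14 samples only, so the call (adjusted p = 0.000255) is partly built into that filter and no fold is given. Prf1, the pore-forming protein perforin, had 103 ± 31.0 scaled counts at P28 and 63.6 ± 36.9 at P14 and did not pass (0.65 ± 0.31, adjusted p = 0.127).

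Of 15 tested factors related to Ikaros or to lymphoid fates, 2 rose and 2 fell, shares near those over all genes. Xbp1, a factor of the unfolded protein response, had 4054 ± 182 scaled counts at P28 and 2874 ± 467 at P14 (0.50 ± 0.11, adjusted p = 0.00329). Prdm1, the repressor Blimp-1, was the other that rose (0.31 ± 0.11, adjusted p = 0.0409). Tal1, a helix-loop-helix factor of blood and endothelial precursors, had 1015 ± 242 scaled counts at P28 and 1807 ± 357 at P14 (-0.83 ± 0.17, adjusted p = 0.00208). Of the 3 endothelial and mural markers held by the table, all above background in all 12 samples, Cdh5 was lower at P28 (-0.63 ± 0.15, adjusted p = 0.00553), Pecam1 did not pass (-0.43 ± 0.21, adjusted p = 0.131) and Pdgfrb was higher (0.41 ± 0.14, adjusted p = 0.0296). Their summed scaled counts were 1857 to 2941 at P28 and 2073 to 3345 at P14, and their part in the Tal1 result was not tested. Ikzf2, the Ikaros relative Helios, had 41.7 ± 8.87 scaled counts at P28 and 70.1 ± 23.3 at P14 (-0.76 ± 0.23, adjusted p = 0.0188), while Ikzf1 did not differ detectably. Of 3 tested myeloid factors none passed: Irf4 was at 0.67 ± 0.27 (adjusted p = 0.0789), Batf3 at 0.24 ± 0.11 (adjusted p = 0.127) and Irf8, which microglia need, at 0.13 ± 0.21 (adjusted p = 0.681). In the reported edgeR fit only Irf4 had an unadjusted p under 0.05. With edgeR under other scalings, 1 of the 3 was called higher with all 14 reference genes, 1 with TMM and 2 with the authors' factors, and DESeq2 called 1.

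Genes of the early response to stimuli were represented by 13 tested genes, of which 7 rose, 0 fell and 6 did not pass. Their median was 0.54 against 0.0026 over all genes. Many were cytokine, chemokine or NF-kB pathway genes, and none was an EGR, FOS or JUN gene. The list therefore does not stand in for Egr1 and Egr2. Tnf, an inflammatory cytokine, had 1221 ± 154 scaled counts at P28 and 660 ± 177 at P14 (0.88 ± 0.17, adjusted p = 0.000953). Socs3, a feedback inhibitor of cytokine signalling, had 2184 ± 319 at P28 and 957 ± 428 at P14 (1.19 ± 0.26, adjusted p = 0.00275). Cd83, a surface protein of stimulated antigen-presenting cells, had 1536 ± 161 at P28 and 966 ± 239 at P14 (0.67 ± 0.16, adjusted p = 0.00553). The other genes that rose were Ccl4, Nfkbiz, Il1a and Il1b. Without P14 samples 4 and 5 the counts were 7 higher and 1 lower, with total counts 6 and 2, and with positive controls alone 0 and 3.

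Fewer genes stood for the targets of the other factors. Of 6 tested C/EBP-beta targets, Il1b rose (103 ± 13.7 scaled counts at P28 and 69.9 ± 13.4 at P14, 0.54 ± 0.15, adjusted p = 0.012) and 5 did not pass, among them Nos2 (0.46 ± 0.17, adjusted p = 0.0505) and Ccl2 (-0.55 ± 0.25, adjusted p = 0.102). With positive controls alone 0 of these 6 were higher and 1 was lower. The c-Maf targets Il10 (0.32 ± 0.15, adjusted p = 0.116) and Il21 (0.19 ± 0.19, adjusted p = 0.5) did not pass. Both lay near background: Il10 had 32.2 ± 5.41 scaled counts at P28 and 25.4 ± 4.54 at P14. Il21 was above background in 3 of 6 samples at each age. For PPAR-gamma and alternative activation, Il4ra (0.75 ± 0.34, adjusted p = 0.102), the lipid receptor Cd36 (0.20 ± 0.17, adjusted p = 0.421) and Stat6 (-0.071 ± 0.096, adjusted p = 0.615) did not pass. Cd36 was above background in only 4 of 6 samples at each age. The AhR list held a single tested gene, the NF-kB inhibitor Tnfaip3, which is also on the early response list. Tnfaip3 did not pass (-0.48 ± 0.21, adjusted p = 0.0923) and was called lower without P14 samples 4 and 5 (-0.73, adjusted p = 0.000853). A single gene cannot stand for the pathway.

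**Figure D4:**
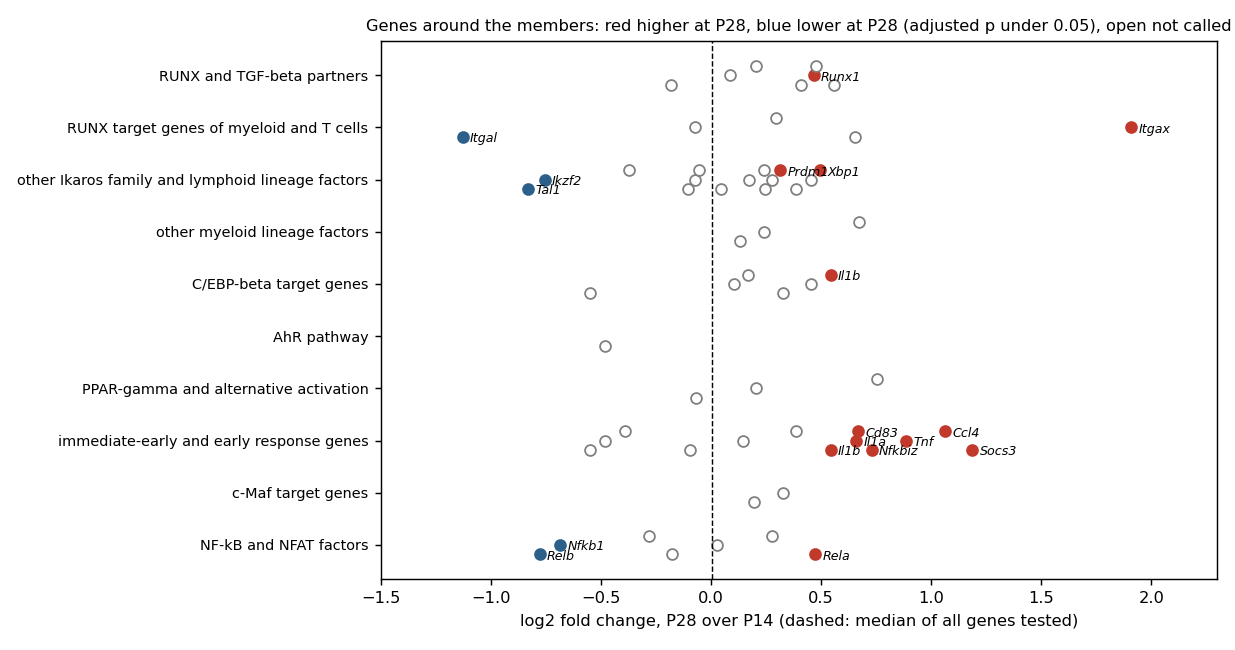
Log2 fold change P28 over P14 of each tested gene in 10 lists around the factors; red points were called higher at P28, blue points lower, and open points did not pass an adjusted p of 0.05. The dashed line is the median of all 366 genes (0.0026). The early response list holds 7 red points and no blue one.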

How the data were processed

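Per the labels' protocols, 2 ng of microglial RNA per sample was reverse transcribed, copied in 5 PCR rounds and hybridised to nCounter probes. One deposited table gives unscaled whole barcode counts for each probe. A second deposited table holds values that the authors scaled to positive controls and reference genes, per the labels, used here as a score, with the authors' ratio of P28 to P14 means and a p-value per gene, per the file headers; it lists 336 genes and 6 of the 8 factors. The kind of the authors' test and the counting software are not given in the sources used here. Since PCR copies do not stand for separate molecules, true error exceeds counting error.

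Titles gave each sample's age. The raw counts of present genes were fitted by glmQLFit and tested by glmQLFTest (edgeR 4.0.16 under R 4.3.3) at an FDR of 0.05, with age as covariate and the geometric mean of Alas1, Gapdh, Oaz1, Polr1b, Sdha and Tbp as the offset. The alternatives used DESeq2 1.42.0, limma 3.58.1 on log2 values with a pseudocount of 1 or 20, and other scalings, filters and samples. The edgeR and limma steps were tested on simulated data. Correlations used log2(scaled count + 1). All 8 factors matched a RefSeq record by accession; no build is named in the files. Within an age no pair of samples agreed within counting noise.

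The factors and lists were chosen with earlier results of these data known. Named genes are all factors, up to 3 tested genes per list with the smallest adjusted p, the 2 genes most like each factor (1 result is not reported here), 5 microglial markers and the reference genes; S100a9, Cxcr2, Gzmb, Cd3e, Cd2, Cd28, Lck, Cd5, Cd6, Klrd1, Klrk1, Gzma, Eomes, Csf3r, Cdh5, Pecam1, Pdgfrb, Tgfbr1, Smad3, Smad5, Prdm1, Ccl4, Nfkbiz and Il1a were named after their values were seen.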

Additional observations from a re-analysis of the deposited data

Results flagged for a closer look

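In P28 sample 138, Maf had 4879 scaled counts, against 2413 to 2920 in the other 5 P28 animals. Its gap to the next animal made up 0.794 of the range of that age, above Dixon's critical value of 0.625 for 6 samples. It was the only flag among 16 groups examined, 8 factors at 2 ages, and chance flags about 1 in 20 such groups.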

How the results depend on the processing

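Of 96 results of single factors under 14 other settings, 76 kept their direction and their side of the threshold, as did 76 of 84 with 1 sample left out. With positive controls alone, which moved the median of all genes to -0.74, the log2 fold changes were -0.31 for Runx1, -0.64 for Ikzf1, -0.73 for Cebpb, -1.03 for Maf, -1.43 for Ahr and -0.99 for Pparg; the last 3 became calls. Without Polr1b they were -0.038 for Ikzf1, -0.11 for Cebpb and -0.73 for Ahr (called). With total counts they were -0.081 for Ikzf1, -0.15 for Cebpb, -0.49 for Maf and -0.74 for Ahr, the last 2 called. TMM gave -0.041 for Cebpb and -0.61 for Ahr (called), and DESeq2 -0.62 for Ahr (called). Gfi1 lost its call with the authors' factors (-0.39) and with background subtracted (-1.30). Without P14 samples 4 and 5, Cebpb was at -0.014 and Ahr at -0.85 (called). Leaving out 1 sample gave 0.41 to 0.53 for Runx1, -0.078 to 0.11 for Cebpb, -0.49 to -0.24 for Maf, -0.74 to -0.43 for Ahr and -0.58 to -0.46 for Gfi1.

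Settings added after seeing the data left out P14 samples 4 and 5 and changed the scaling too. All 14 reference genes gave 0.24 for Ikzf1 and -0.71 for Ahr (both called) and -0.38 for Gfi1 (call lost). Without Polr1b, Runx1 lost its call (0.21), Ikzf1 was at -0.031, Cebpb at -0.13 and Ahr at -0.97 (called), and 181 of the 366 genes were called against 112. Total counts gave 0.26 for Runx1 (call lost), -0.11 for Cebpb and -0.94 for Ahr (called). Positive controls alone gave -0.66 for Runx1, -0.92 for Ikzf1, -1.04 for Cebpb, -1.27 for Maf, -1.87 for Ahr and -1.24 for Pparg, all called, with 335 genes called in all. The authors' factors gave 0.25 for Ikzf1 and -0.69 for Ahr (both called) and -0.37 for Gfi1 (call lost). Leaving out P28 sample 138 as well gave -0.096 for Cebpb, -0.42 for Maf and -0.88 for Ahr, the last 2 called. The cause of these shifts was not tested.

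Over the panel, genes higher and lower numbered 61 and 51 in the reported fit, 93 and 36 with the authors' factors, 89 and 42 with all 14 reference genes, 91 and 26 with limma on the authors' values, 50 and 74 without Polr1b, 51 and 96 with total counts and 8 and 128 with positive controls alone. The split was 68 to 90 when P14 samples 4 and 5 were left out. Gfi1 has no value with limma on the authors' values or with presence in 6 of 12 samples. Runx3, tested only with no presence filter, was at -0.29 (adjusted p = 0.276). Counts near the lane thresholds limit what can be said of Gfi1, Runx3, Ahr and Pparg, and of the target genes Il10, Il21, Cd36 and Nos2. No paired analysis was possible because the ages share no sample number.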

Other observations

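Genes like a factor were ranked by Pearson's r of log2 scaled counts centred on the age means, over all 12 samples, as a description with no test. Runx1 went most closely with Irak4, a kinase of Toll-like receptor signalling (r = 0.88, and 0.85 without P14 samples 4 and 5), and with the receptor Tlr4 (0.87, and 0.78 without them). Maf went with Src (0.98, and 0.89 without P28 sample 138) and with Jak2 (0.93, and 0.60 without that sample). Cebpb went with Tlr2 (0.87), Ikzf1 with Nos2 (0.87), Ahr with Ptpn2 (0.85) and Runx1 (0.82, and 0.54 without P14 samples 4 and 5), and Pparg with Cfi (0.76). The highest values among all tested genes were looked for, so high values arise by selection, and all samples share the scaling.

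Of 7 tested NF-kB and NFAT factors, Rela, an NF-kB subunit that activates transcription, rose (0.47 ± 0.15, adjusted p = 0.0224), and Relb (-0.78 ± 0.18, adjusted p = 0.00396) and Nfkb1 (-0.68 ± 0.18, adjusted p = 0.00817), which encode other subunits, fell. Without P14 samples 4 and 5 Rela was not called (0.36, adjusted p = 0.0625), and with positive controls alone it was at -0.32.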
